A study of Mus musculus with 20 samples.

Results

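The heparan sulfate N-deacetylase/N-sulfotransferases, Ndst1 to Ndst4, and the glypicans, Gpc1 to Gpc6, are 10 of the 35580 genes with transcripts in these RNA-seq data. They were taken as 2 families of 1 pathway, and Ndst4 was selected on its measured counts, because its fold change between genotypes differed between the hippocampus and the neocortex. Those fold changes are therefore given for Ndst4 as a description without a test. All 10 genes passed the filter on low counts in every comparison.

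The samples were pieces of hippocampus or of neocortex (labelled cerebral cortex) from male C57BL/6J mice aged 13.5 months, with 5 wild type (WT) and 5 miR-324-null (Mir324-null in the labels) samples per tissue and 20 in all. The miR-324-null line is a global knockout in which Mir324, the gene of both arms of the microRNA, was deleted by genome editing, so the loss is not limited to the brain or to adult life. The question was which transcripts change when the microRNA is absent, and whether they do so in both brain regions. The labels do not tie the samples to animals, so p values measure the spread between these samples.

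Heparan sulfate is a long sugar chain made in the Golgi on a small set of core proteins. An Ndst enzyme removes acetyl groups from some of its glucosamines and puts sulfate in their place, and this step sets where the epimerase and the O-sulfotransferases can act afterwards. Glypicans are core proteins held on the outer cell membrane by a lipid anchor, where their chains bind growth factors, axon guidance cues and synaptic partners. In the brain they are known for roles in cell proliferation, axon guidance and synapse formation, and Gpc4 is known as a signal for synapses that is released by astrocytes.

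The sequence that the mutant mice lack is shown first, since a microRNA pairs with its targets through its seed. The mature sequences are from RefSeq (GRCm38.p6), with the seed, bases 2 to 8, in capitals. The 5p arm lies at chr11:70012060-70012082 and the 3p arm at chr11:70012095-70012114, both on the plus strand.
miR-324-5p: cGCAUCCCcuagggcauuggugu
miR-324-3p: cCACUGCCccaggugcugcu

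Seed matches were looked for on the transcript strand of the longest annotated 3′UTR of each gene. The searched strings were GGGATGC, GGGATGCA and GGATGCA for miR-324-5p, and GGCAGTG, GGCAGTGA and GCAGTGA for miR-324-3p, where the 8-base strings contain the 7-base ones and each place was counted once. Ndst1, Gpc1, Gpc2, Ndst3 and Ndst4 had a match, and these letters were absent from the windows of Ndst2, Gpc3, Gpc4, Gpc5 and Gpc6. The Ndst1 match is in the 3′UTR of Ndst1-202, whereas the Ndst1 values here are all of Ndst1-201, and its sequence is not shown. The matches below, with the matching bases in capitals, are shown because Gpc1 had the most and because Ndst4 is the gene whose neocortical level differed most between genotypes.
Gpc1, 5p match at chr1:92859017-92859044, plus strand: aagcctgcaaGGGATGCcagtatgttgc
Gpc1, 5p match at chr1:92859396-92859423, plus strand: cctggccatgGGGATGCtgggtggctgg
Gpc1, 5p match at chr1:92859717-92859744, plus strand: cagggcctagGGGATGCtgagttgctat
Gpc1, 3p match at chr1:92859744-92859771, plus strand: tatccaggaaGGCAGTGgtcctgacatg
Gpc2, 5p match at chr5:138273883-138273910, minus strand: attattctttGGGATGCtgaggcaggag
Ndst3, 3p match at chr3:123526885-123526912, minus strand: ctgccactttGGCAGTGAcacctgccat
Ndst4, 3p match at chr3:125725359-125725386, plus strand: ctcctaccttGGCAGTGAttgagcattt

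How common such matches are depends on the length of the 3′UTR. Each gene was therefore set beside the 3′UTRs of tested genes within 10% of its length, a set that includes its own. Of 644 3′UTRs as long as that of Ndst4, 51.1% held a miR-324-3p match, and of 1050 as long as that of Ndst3, 36.3% did. Counting only GGCAGTG, which the matches of both genes contain, the shares were 37.3% and 25.9%. A miR-324-5p match was in 34.1% of the 586 compared with Ndst1 and in 7.26% of the 744 compared with Gpc2. Counting only GGGATGC, the string found in both genes, the shares were 21.8% and 4.30%. Gpc1 had 3 miR-324-5p matches in 2215 bases. Of 1138 3′UTRs of that length 22.2% held at least 1 (13.4% counting only GGGATGC), and 4, Gpc1 among them, held 3 or more of any kind. A match is a stretch of letters and not a measured site. For Gpc1, the authors cite earlier work in a mouse cell line that identified it as a direct miR-324-5p target. They report no significant increase of Gpc1 in these data. The files hold no value for the microRNA itself, so the targeted gene was not analysed here.

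The libraries held 12752439 to 19617765 estimated counts. Marker genes fitted the dissections: all 6 dentate gyrus markers were higher in the hippocampus and 6 of 7 neocortical layer markers were lower there. Choroid plexus transcripts were uneven. Their summed level was 6943 TPM (abundance scaled by transcript length and depth) in hippocampus WT replicate 3 and 5998 TPM in hippocampus miR-324-null replicate 5, where the group medians were 94.5 and 148 TPM. In neocortex miR-324-null replicate 2 it was 1284 TPM, and the other 9 neocortical samples lay between 18.3 and 87.2 TPM. The 8 markers of striatal projection neurons summed to 182 to 466 TPM in WT neocortex and to 307 to 925 TPM in miR-324-null neocortex. All 8 were lower in the hippocampus than in the neocortex, and none of the 8 passed the test between genotypes in the neocortex.

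Gpc1 was the most abundant of the 10 genes in every group, and Gpc5 and Ndst1 followed. Because TPM accounts for transcript length, it allows levels of different genes to be compared. In WT hippocampus the means of Gpc1, Gpc5, Ndst1 and Gpc4 were 57.0 ± 4.56, 30.5 ± 1.62, 26.8 ± 2.91 and 18.1 ± 3.67 TPM (SD, n = 5). Ndst2, Ndst3 and Ndst4 lay between 8.06 and 10.6 TPM with ranges that overlapped one another but neither Gpc4 above nor Gpc3 below, and Gpc3, Gpc6 and Gpc2 lay between 1.67 and 3.47 TPM. Gpc1 did not overlap Gpc5 there, whereas Gpc5 and Ndst1 overlapped, as did Ndst1 and Gpc4. In WT neocortex Gpc1, Gpc5 and Ndst1 again came first, Ndst2 and Ndst3 followed ahead of Gpc4 (4.53 ± 0.601 TPM), and Ndst4 came last at 0.629 ± 0.380 TPM, with a range that overlapped that of Gpc2. In miR-324-null neocortex Ndst4 was seventh at 4.48 ± 1.72 TPM, overlapping both neighbours, Gpc4 and Gpc6.

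**Figure D1:**
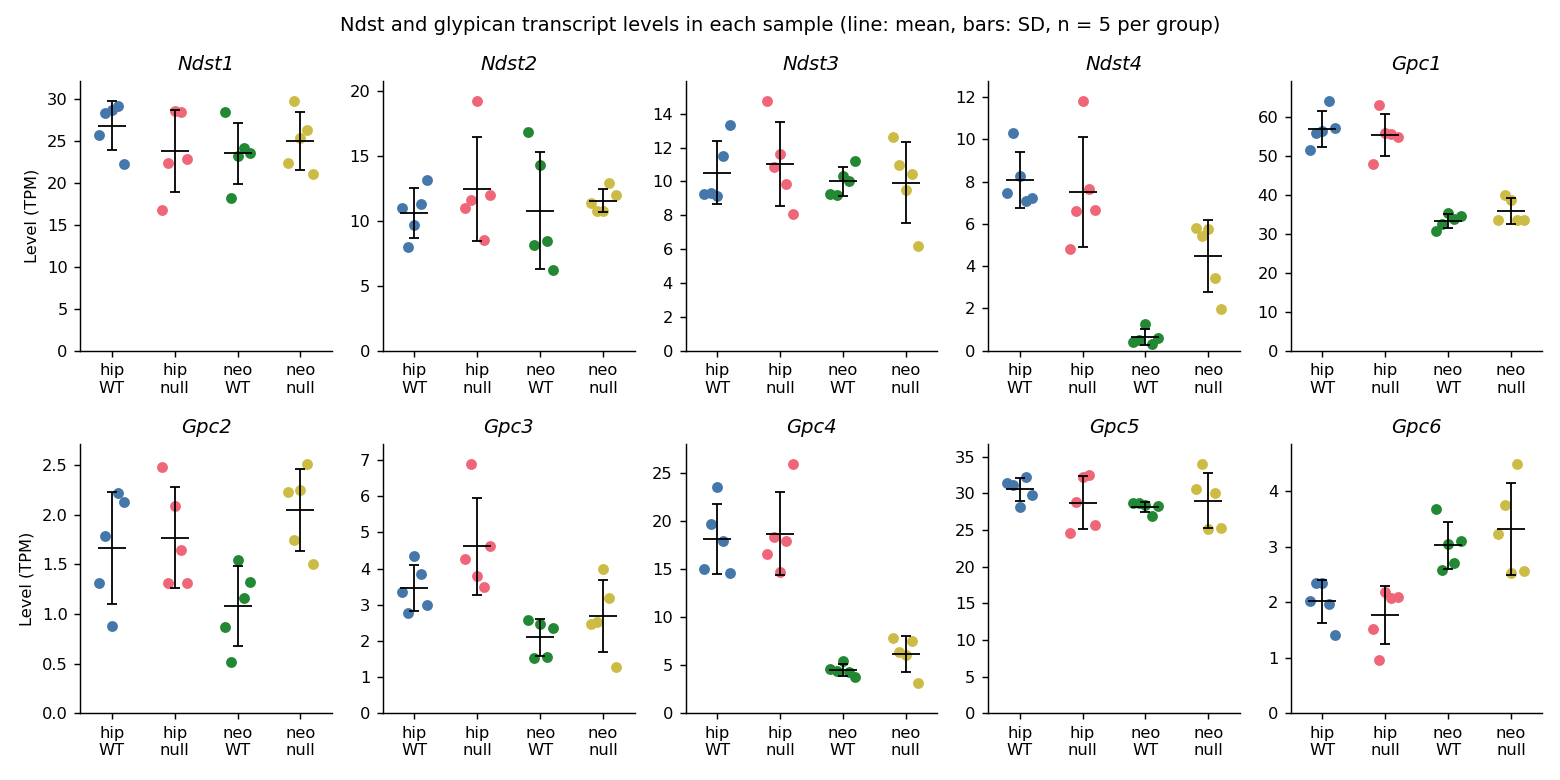
Level of each of the 10 genes in each of the 20 samples, in TPM with an axis from 0 for each gene. Dots are samples (hip, hippocampus, neo, neocortex), the line is the mean and the bars are the SD of 5 samples. Gpc4 and Gpc1, higher in the hippocampus, and Gpc6, lower there, separate the tissues, while Ndst4 lies near 0 only in WT neocortex.

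Within the Ndst family, Ndst1 made up the largest mean share of the summed TPM in every group, at 47.8% ± 4.71 in WT hippocampus and 52.4% ± 3.98 in WT neocortex (SD, n = 5). Ndst4 made up 14.4% ± 2.48 of it in WT hippocampus and 13.4% ± 2.31 in miR-324-null hippocampus. Neocortical shares were 1.40% ± 0.759 for WT and 8.64% ± 2.90 for miR-324-null samples. Of the 9 Ndst3 transcripts, the one annotated as a target of nonsense-mediated decay held 47.3 to 52.7% of its TPM as group means. With protein-coding transcripts alone the Ndst1 share was 57.3% in WT hippocampus and the Ndst3 share 9.58% in place of 18.8%.

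Within the glypicans, Gpc1 and Gpc5 together carried most of the transcript. Gpc1 made up 50.5% ± 2.01 of the family's TPM in WT hippocampus and 46.2% ± 1.77 in WT neocortex. Gpc4 made up 16.02% ± 2.81 in WT hippocampus and 6.26% ± 0.711 in WT neocortex, and the Gpc5 share was 27.1% ± 2.09 and 39.0% ± 1.48 in the same groups. The level of Gpc5 hardly differed between these groups, as given below, so its share followed the sum of the others. The summed glypican level was 113 ± 6.88 TPM in WT hippocampus and 72.3 ± 2.51 TPM in WT neocortex.

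**Figure D2:**
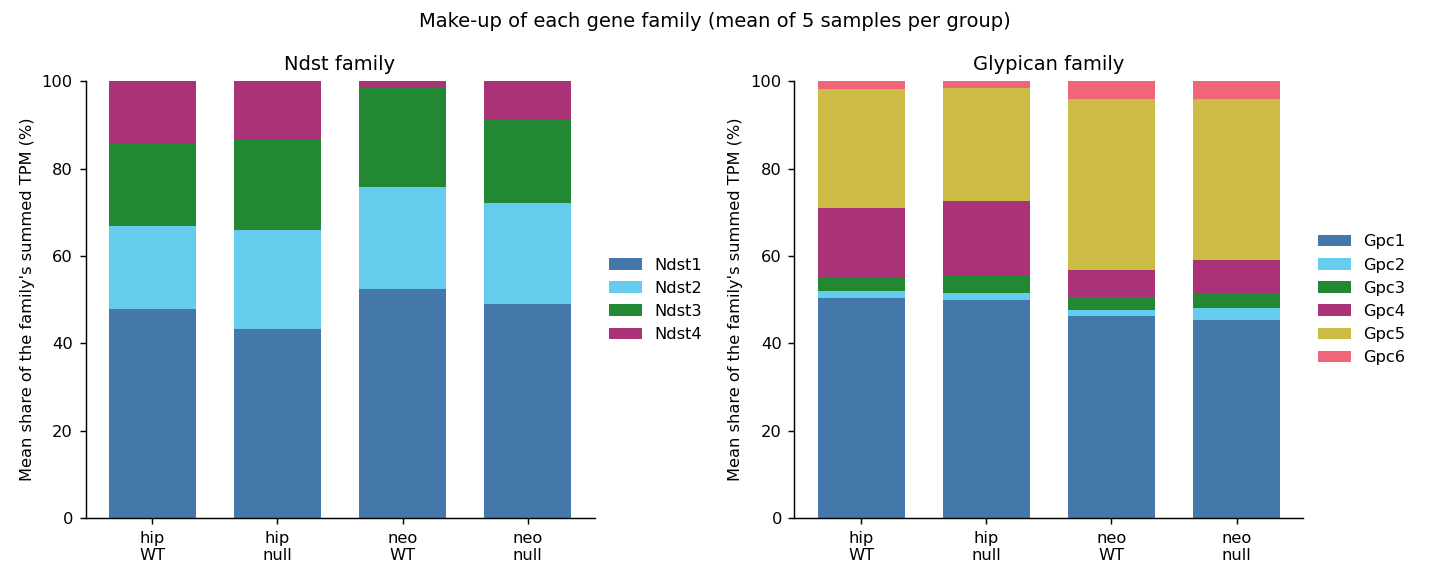
Mean share of each gene in its family's summed TPM, in percent, for the 4 groups of 5 samples (hip, hippocampus, neo, neocortex). Ndst4 forms 1.40% of the Ndst sum in WT neocortex and 8.64% in miR-324-null neocortex, and Gpc4 forms a larger part of the glypican sum in the hippocampus than in the neocortex.

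The clearest differences were between the brain regions. Averaged over genotypes, 4 of the 10 genes were higher in the hippocampus (Ndst4, Gpc4, Gpc3 and Gpc1) and Gpc6 was lower, by edgeR's quasi-likelihood test on all 20 samples. Of all 15391 genes tested 46.4% passed, 23.3% higher and 23.1% lower, so 5 of 10 is near the background. The median log2 difference was 0.20 over the 10 genes and -0.0013 over all genes.

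Gpc4, the glypican known from astrocytes, is at chrX:52053021-52165252 and differed between regions in every sample. Its levels were 15.0, 19.7, 23.5, 17.9 and 14.5 TPM in WT hippocampus (replicates 1 to 5) and 16.5, 18.4, 14.7, 17.9 and 26.0 TPM in miR-324-null hippocampus. WT neocortex held 4.66, 4.44, 5.45, 4.30 and 3.81 TPM and miR-324-null neocortex 7.79, 6.34, 6.12, 7.54 and 3.15 TPM. The lowest hippocampal sample was above the highest neocortical sample. On the scale of normalised counts the log2 difference was 1.85 (SE 0.14, adjusted p = 4.3e-10, edgeR). The highest hippocampal values were in the 2 samples with most choroid plexus transcript, and without them the difference was 1.73. The 6 astrocyte markers, none of them at 0, summed to 1694 to 1860 TPM in the hippocampus and 1424 to 1713 TPM in the neocortex, and their part in the Gpc4 difference was not tested.

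Gpc1, the most abundant glypican, known as a neuronal core protein, is at chr1:92831645-92860779. It ranged from 48.0 to 64.1 TPM in the 10 hippocampal samples and from 30.8 to 40.0 TPM in the 10 neocortical samples, again without overlap. The log2 difference was 0.77 (SE 0.045, adjusted p = 1.4e-11, edgeR), the smallest p of the 10 genes. Gpc1 and Gpc4 were the only 2 of the 10 whose normalised counts scaled to library size (CPM) did not overlap between regions. These CPM were normalised within each region. Of all genes tested 12.7% did not overlap, with all 20 samples normalised together, so the 2 scales differ.

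Gpc3, the glypican whose human counterpart is lost in an overgrowth syndrome, is next to Gpc4 at chrX:52272426-52613950. It was measured at 2.79 to 6.90 TPM in the hippocampus and at 1.29 to 3.998 TPM in the neocortex, so single samples overlapped. The log2 difference was 0.80 (SE 0.17, adjusted p = 6.6e-04, edgeR).

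Gpc6 is at chr14:116925315-117976544 and was the only member lower in the hippocampus. Its levels were 0.960 to 2.35 TPM there and 2.53 to 4.50 TPM in the neocortex. They did not overlap as TPM but did as CPM, and the log2 difference was -0.64 (SE 0.13, adjusted p = 3.7e-04, edgeR). Between 27 and 140 estimated counts per library lay behind these values.

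Ndst4, at chr3:125404076-125728899, had the largest regional difference of the 10 genes, 2.52 on the log2 scale (SE 0.23, adjusted p = 1.4e-08, edgeR). This value is an average of unequal parts: it was 4.05 among WT samples and 0.98 among miR-324-null samples. The low WT neocortical samples enter both this value and the one that chose Ndst4. Its p, its rank and its place among the genes higher in the hippocampus may therefore depend on that choice.

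The other 5 genes did not pass. Ndst1, the widely expressed enzyme of the family, stood at 25.3 ± 4.12 TPM in the hippocampus and 24.2 ± 3.42 TPM in the neocortex (SD, n = 10), a log2 difference of 0.10 (SE 0.081). For Ndst2, known for making heparin in mast cells, the difference was 0.012 (SE 0.064). For Ndst3 it was 0.14 (SE 0.11) and for Gpc2, known from developing neurons, 0.26 (SE 0.18). For Gpc5 it was 0.12 (SE 0.054, adjusted p = 0.0856, edgeR), and it passed when any of 4 samples was left out. These were hippocampus WT replicate 3, hippocampus miR-324-null replicate 5, and neocortex miR-324-null replicates 1 and 2, with values of 0.14 to 0.15.

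**Figure D3:**
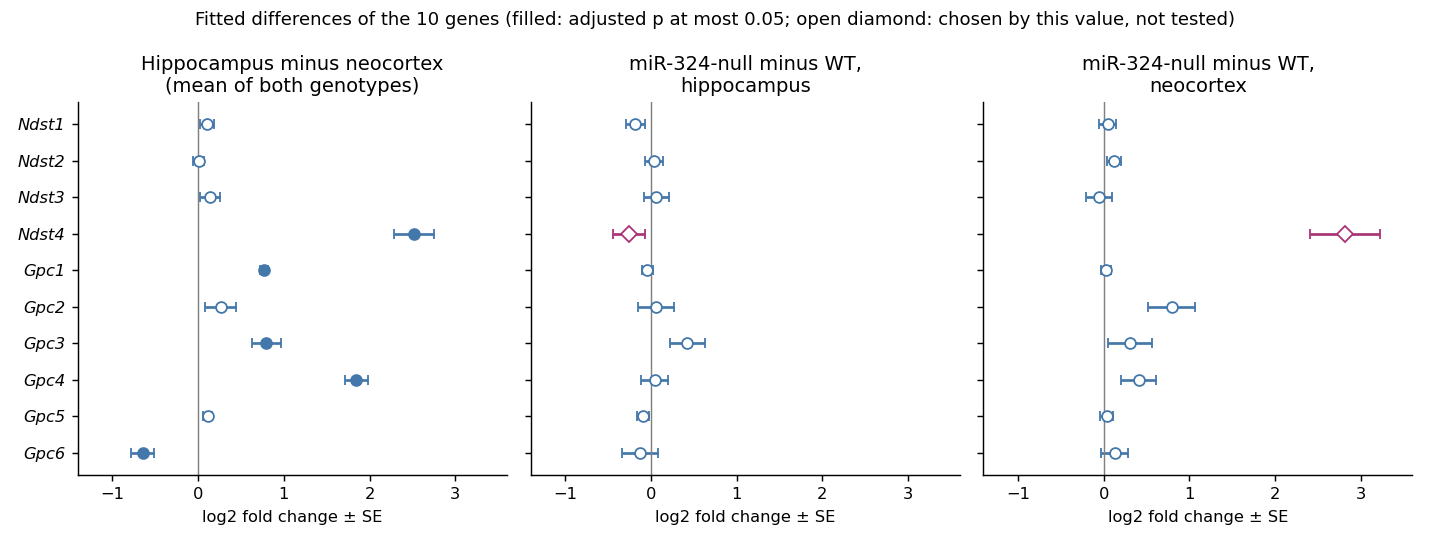
Fitted log2 fold changes of the 10 genes with their standard errors, for hippocampus minus neocortex and for miR-324-null minus WT in each region. Filled points have an adjusted p of at most 0.05, open diamonds mark the values that chose Ndst4 and were not tested, and no other gene has a filled point in either genotype panel.

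Between genotypes in the hippocampus, none of the 9 genes other than Ndst4 passed edgeR's test, where 0.115% of 14796 genes tested did. At an unadjusted p of 0.05 the count was also 0, where 11.1% of all genes lay below that value, and DESeq2 called 0 as well. The median log2 fold change, with miR-324-null over WT, was 0.0031 over the 6 glypicans, a set without Ndst4, and 0.0012 over all genes.

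The largest hippocampal value among the 9 was that of Gpc3, 0.43 (SE 0.21, adjusted p = 0.466, edgeR). Its levels were 3.37, 2.79, 4.35, 3.86 and 2.99 TPM in WT and 4.27, 6.90, 3.80, 3.49 and 4.62 TPM in miR-324-null samples. The groups overlapped, and the highest value was that of miR-324-null replicate 2. Ndst1 had the largest negative value of the 9, -0.18 (SE 0.11). Gpc1, with its 3 miR-324-5p seed matches, had a log2 fold change of -0.039 (SE 0.066) in the hippocampus and 0.030 (SE 0.060) in the neocortex, the smallest standard errors of the 10 genes.

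In the neocortex too, none of the 9 genes passed, where 0.315% of 14930 genes tested did. The count was 1 at an unadjusted p of 0.05, where 12.2% of all genes lay below it, and 0 with DESeq2. The median log2 fold change was 0.22 over the 6 glypicans, a set without Ndst4, and 0.0046 over all genes.

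Gpc2 was the gene at an unadjusted p of 0.05, with a log2 fold change of 0.79 (SE 0.27, adjusted p = 0.267, edgeR). It was measured at 0.867, 0.514, 1.55, 1.17 and 1.32 TPM in WT neocortex and at 2.23, 1.75, 2.25, 2.51 and 1.502 TPM in miR-324-null neocortex. The lowest miR-324-null sample lay just under the highest WT sample. These levels rest on 16 to 69 estimated counts per library. The protein-coding transcript Gpc2-205 held 21.0% of the Gpc2 TPM in WT and 44.5% in miR-324-null neocortex as group means. Single samples ran from 0 to 50.6% and from 31.7 to 61.4%, so the groups overlapped. Retained-intron forms held much of the rest.

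Gpc4 in the neocortex, with the levels given above, had a log2 fold change of 0.41 (SE 0.20, adjusted p = 0.443, edgeR). Replicate 5 of the miR-324-null neocortex was its lowest sample and the other 4 were above every WT sample. Without that replicate Gpc2 and Gpc4 both passed, with values of 0.95 and 0.58 and adjusted p of 0.0425 and 0.0208 (edgeR), and the share of all genes called was 3.76% in place of 0.315%. The same replicate was also the lowest of all neocortical samples for Gpc3 and Ndst3, at 1.29 and 6.16 TPM.

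The difference between the regional genotype effects was tested for the same 9 genes in 1 fit of all 20 samples. None passed, where 0.0195% of 15391 genes did, and 0 of 9 lay under an unadjusted p of 0.05, where 5.57% of all genes did. DESeq2 called none of the 9. For Gpc2 the hippocampal minus the neocortical effect was -0.72 (SE 0.35), and for Gpc4 it was -0.35 (SE 0.27).

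For Ndst4 the values that chose it are these. WT hippocampus held 7.48, 10.3, 8.25, 7.06 and 7.23 TPM (replicates 1 to 5) and miR-324-null hippocampus 4.82, 6.63, 11.8, 7.64 and 6.67 TPM. WT neocortex held 0.417, 0.503, 1.28, 0.328 and 0.616 TPM, and miR-324-null neocortex 5.80, 5.45, 5.77, 3.44 and 1.95 TPM. The hippocampal groups overlapped, with both the lowest and the highest sample in the miR-324-null group, and the neocortical groups did not, as was so for 1.07% of all genes in this direction. The fitted log2 fold change was -0.26 (SE 0.19) in the hippocampus and 2.82 (SE 0.41) in the neocortex, and the first minus the second was -3.07 (SE 0.47). As means, miR-324-null neocortex reached 55.6% of the WT hippocampal level and WT neocortex 7.80%.

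The estimated split of reads among the Ndst4 transcripts also differed between the neocortical groups. Kallisto divides reads among the 6 Ndst4 transcripts in the files by likelihood, so the split is an estimate. In WT neocortex it rests on 15 to 55 counts per library. The span of Ndst4-205 lies within that of Ndst4-204, so some reads may fit both. Ndst4-204, the longest protein-coding form at 7417 bases, received 235 to 362 estimated counts in WT hippocampus, 141 to 475 in miR-324-null hippocampus and 68.3 to 269 in miR-324-null neocortex. It was listed at 0 in all 5 WT neocortex libraries. For reads counted directly, a count of 0 allows up to 0.200 to 0.212 CPM by counting error alone (3 counts per library). These zeros are estimates, and reads that fit both forms may have been given to Ndst4-205, so that bound need not hold here. Ndst4-205, the other main coding form, received 7.02 to 36.8 estimated counts in WT neocortex and 5.53 to 66.4 in miR-324-null neocortex.

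The retained-intron form Ndst4-202 differed little between the groups. It received 2.04 to 17.4 estimated counts in WT hippocampus, 3.42 to 20.3 in miR-324-null hippocampus, 7.53 to 18.2 in WT neocortex and 8.05 to 29.5 in miR-324-null neocortex. It therefore made up 43.7% of the small Ndst4 level of WT neocortex, as a mean of shares, and 6.69% in miR-324-null neocortex. Both Ndst4-204 and Ndst4-205 carry the miR-324-3p match printed above.

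Marker lists of neighbouring regions also had unequal levels in the neocortical groups, though none of their genes passed the test. In bulk tissue, more cells of a type and more RNA per cell cannot be told apart. The 8 striatal markers had log2 fold changes of 0.61 to 1.73 in the neocortex with the lowest adjusted p at 0.214 (edgeR), and none was at 0 in any neocortical sample. Of the 6 dentate gyrus markers, none of which was at 0, 5 were tested with a median of 0.47 and sums of 13.3 to 18.8 TPM in WT and 14.0 to 29.3 TPM in miR-324-null neocortex. Single dentate genes ran from -0.077 to 1.42. Thalamic markers summed to 25.3 to 32.3 TPM in WT and 29.8 to 47.9 TPM in miR-324-null neocortex, with log2 fold changes of -0.093 to 0.73. The 4 tested choroid plexus markers had the highest median, 1.54 (0.87 to 2.94, lowest adjusted p = 0.184, edgeR), and the 7 neocortical layer markers a median of -0.20 (-0.38 to 0.35).

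Fibcd1, a marker of hippocampal CA1 pyramidal cells, did not overlap between the neocortical genotypes either. It was measured at 1.89, 2.59, 2.10, 2.24 and 2.33 TPM in WT and 5.42, 4.92, 3.90, 8.77 and 2.86 TPM in miR-324-null neocortex, with a log2 fold change of 1.16 (SE 0.25, adjusted p = 0.0854, edgeR). As means it stood at 4.45% of its WT hippocampal level in WT neocortex and at 10.3% in miR-324-null neocortex, where Ndst4 stood at 55.6%. Fibcd1 had the largest log2 fold change of the 5 CA1 markers, which ran from -0.33 to 1.16 with a median of -0.061. The summed CA1 list, which has members that the neocortex also expresses, ran from 203 to 246 TPM in WT and from 224 to 252 TPM in miR-324-null neocortex. The 6 CA3 and CA2 markers had a median log2 fold change of 0.12 (-0.16 to 0.43, lowest adjusted p = 0.105, edgeR). Replicate 5 of the miR-324-null neocortex was the lowest of its group for Ndst4, Fibcd1 and the striatal sum. The highest striatal sum was in replicate 3. The highest Ndst4 level depended on the unit. As TPM it was in replicate 1 (5.80, with 5.77 in replicate 3), and as CPM in replicate 3 (19.5, with 13.4 in replicate 1). The part of these markers in the Ndst4 and Gpc4 values was not tested.

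**Figure D4:**
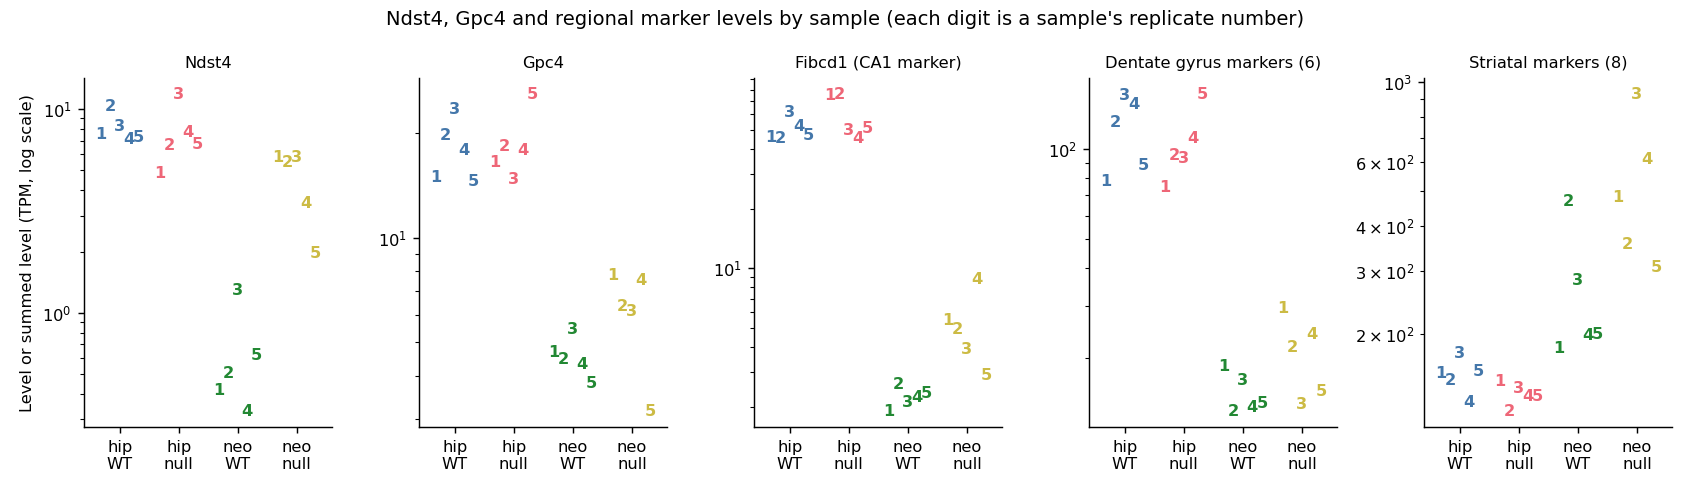
Level of Ndst4, Gpc4 and Fibcd1 and summed level of 6 dentate gyrus and 8 striatal marker genes in each sample, in TPM on log axes. Each digit is the replicate number of a sample (hip, hippocampus, neo, neocortex), and miR-324-null neocortex replicate 5 lies lowest of its group for Ndst4, Gpc4, Fibcd1 and the striatal sum.

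The rest of the heparan sulfate pathway was followed through a list of 64 genes ordered by role, of which 62 were tested and Hs3st6 and Hpse2 were too low. Between regions 36 of the 62 passed (edgeR), 16 higher and 20 lower in the hippocampus, beside 46.4% of all genes. The median log2 difference was -0.060, beside -0.0013 over all genes. On log2(TPM + 1) with limma the split was 10 higher and 25 lower.

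Of the 11 tested epimerase and O-sulfotransferase genes, which act after the Ndst step, 9 were lower and Hs3st4 alone higher in the hippocampus, where 23.1% of all genes tested were lower and 23.3% higher. Hs3st2, which adds a rare O-sulfate late in chain modification, was at 7.57 ± 1.34 TPM in the hippocampus and 36.1 ± 7.25 TPM in the neocortex (SD, n = 10), a log2 difference of -2.23 (SE 0.12, adjusted p = 6.0e-12, edgeR). Hs3st4, of the same family, was at 48.6 ± 4.92 and 28.5 ± 3.24 TPM, a difference of 0.82 (SE 0.066).

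Among the 5 genes of chain polymerisation 3 were lower in the hippocampus, with Ext1, a subunit of the polymerase, at -0.51 (SE 0.072). Of the 4 genes of the sulfate donor 3 were higher, led by Papss2, which makes the donor, at 0.71 (SE 0.066). For the linker that joins chain and core, only Xylt2 of 6 passed, at -0.16 (SE 0.052).

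Of 7 other core proteins, 2 were higher and 1 lower in the hippocampus, led by the syndecans Sdc4 (0.46, SE 0.057) and Sdc2 (-0.34, SE 0.043). Among 4 tested genes that trim or release chains outside the cell, the heparanase Hpse was lower (-0.90, SE 0.21) and the sulfatase Sulf2 higher (0.12, SE 0.046), though at 52.2 and 52.1 TPM as means. Of 8 genes of lysosomal breakdown only Sgsh, which removes N-linked sulfate, passed, at 0.34 (SE 0.091). Its levels as TPM were close, at 3.78 ± 0.686 in the hippocampus and 3.57 ± 0.937 in the neocortex (SD, n = 10).

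Among 17 ligands, receptors and partners 8 were higher and 5 lower in the hippocampus. Slit1, a repulsive axon guidance ligand that binds Gpc1, was at 77.7 ± 13.3 TPM in the hippocampus and 22.6 ± 5.28 TPM in the neocortex (SD, n = 10), a log2 difference of 1.80 (SE 0.091, adjusted p = 1.7e-12, edgeR). Lrrtm3, a synaptic organiser of the leucine-rich repeat class, was at -1.32 (SE 0.077).

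**Figure D5:**
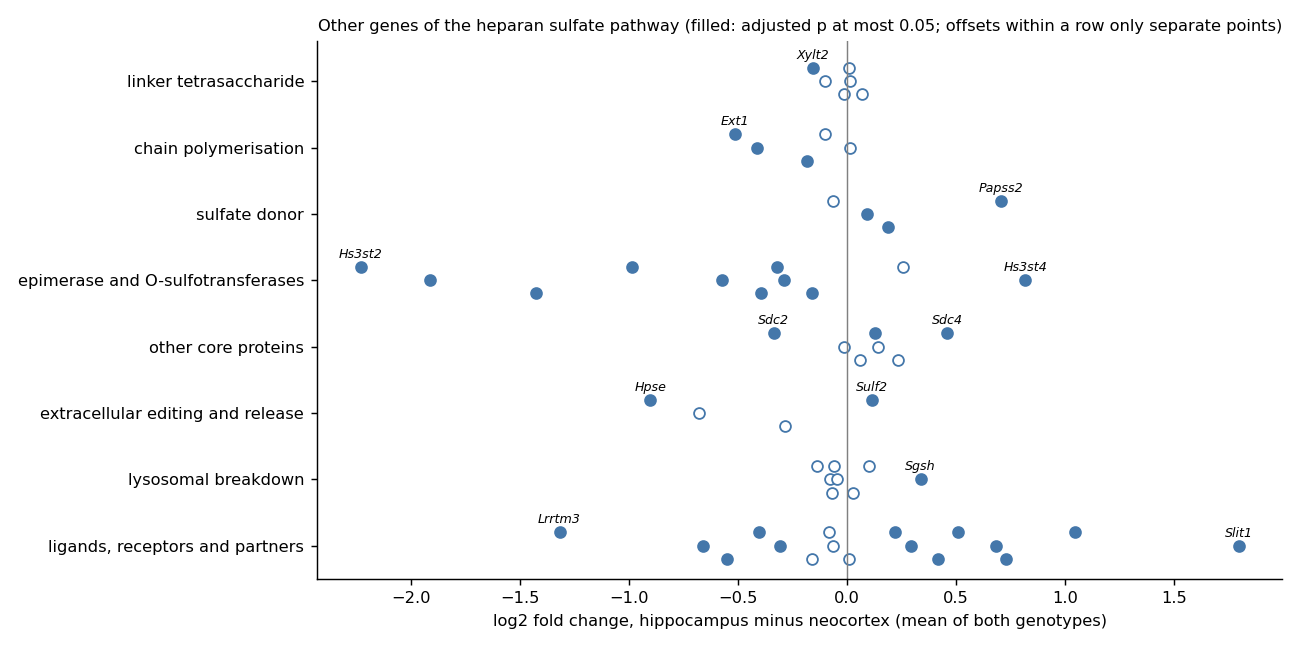
Fitted log2 difference between hippocampus and neocortex for the 62 tested genes of the heparan sulfate pathway, 1 row for each role. Filled points have an adjusted p of at most 0.05, and 9 of the 10 filled points among the epimerase and O-sulfotransferase genes lie below 0.

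Between genotypes none of the 62 genes passed in either region by edgeR, with 3 in the hippocampus and 9 in the neocortex at an unadjusted p of 0.05, where 11.1% and 12.2% of all genes lay below that value. DESeq2 called 0 of them in the hippocampus and 1 in the neocortex, where it called 0.939% and 1.61% of all genes. The 1 gene was Hs3st1, an O-sulfotransferase, with an edgeR value of 0.45 (SE 0.11, adjusted p = 0.149). Without neocortex miR-324-null replicate 5, Hs6st2, Idua and Robo1 passed by edgeR, where 3.76% of all genes did. The last 4 genes named here were chosen on their values.

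The genes whose levels ran most like each member were found among 15390 others by Pearson's r of log2 CPM over the 20 samples, which share library and region, so r describes these samples and carries no p. For Ndst4 these were Lmo3 (r = 0.94), Stac (0.93) and Mum1l1 (0.92), and after the 4 group means were subtracted Ccn1 (0.84), Stac (0.79) and Arap1 (0.79). For Gpc4 the first was Slc29a4 both before (0.98) and after (0.89) that step, and for Gpc1 it was Hpca (0.98) and then Vps36 (0.78). Syt17 led for Gpc3 (0.93 and 0.87) and Glud1, the glutamate dehydrogenase, for Gpc5 (0.86 and 0.87). For Ndst1, Ndst2, Ndst3, Gpc2 and Gpc6 the first genes were Cds2, Unc79, Tmem150a, Pipox and Arid5b, with r between 0.76 and 0.89.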

How the data were processed

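Total RNA was made into stranded mRNA libraries. The authors pseudo-aligned reads with Kallisto to the mouse GRCm38 (release 92) transcriptome, while the labels name a human build, and deposited for each transcript an estimated count and a TPM (versions and the strand setting are not given in the sources used here). Of 115270 transcripts, 113580 were matched by identifier to GENCODE M21 and summed to 35580 genes. Summed estimated counts were rounded and tested with edgeR 4.0.16 (TMM, filterByExpr, quasi-likelihood, Benjamini-Hochberg, DE at adjusted p ≤ 0.05), with each tissue fitted alone for genotype and all 20 samples for the tissue difference and for the difference between tissues in the genotype effect. The scripts were tested on simulated data. Alternatives were DESeq2 1.42.0, limma 3.58.1 on log2(TPM + 1) and log2(TPM + 0.1), other filters, and leaving samples out.

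The genes, the pathway and marker lists and the tests were chosen with earlier results of these data known. The named genes are the 10 members and, for each role of the pathway, the passing genes of largest rise and fall between tissues, any gene passing between genotypes, and the genes most correlated with each member (the first of each list, or the first 3 for Ndst4). Annotated exons of Gpc1, Gpc2 and Gpc5 overlap those of Ankmy1, Gm43720 and Gm20713, which were too low to test, so reads there are uncertain. A miR-324-3p form with another seed was not searched.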

Additional observations from a re-analysis of the deposited data

Results flagged for a closer look

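The genotype effect of Ndst4 in the hippocampus minus that in the neocortex was -3.07 on the log2 scale, with 5 miR-324-null neocortical samples all above the 5 WT samples and the hippocampal groups overlapping. This is the value for which Ndst4 was picked, so it is repeated here without a test.

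Gpc5 in WT neocortex replicate 4 lay below the other 4 samples of its group, at 27.0 TPM where they were at 28.2 to 28.7 TPM. It was the only such sample among the 40 sets of 5 levels (10 genes in 4 groups), where chance gives about 1 in 20. The group was tight, with an SD of 0.696 TPM, so the gap is small in size.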

How the results depend on the processing

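Without neocortex miR-324-null replicate 5, Gpc2 and Gpc4 passed in the neocortex, so leaving out 1 replicate at a time gave 0 to 2 of 9 genes. That omission also raised the calls among all genes from 47 to 566. None of the 9 genes other than Ndst4 passed between genotypes in the hippocampus, or in the difference between the tissues' genotype effects, under any alternative run. Between tissues 5 or 6 of the 10 passed under every alternative, and the sixth was Gpc5 or Ndst3.

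Each value that changed sign was smaller than its own SE. With 1 replicate left out at a time, hippocampal genotype effects ran from -0.0093 to 0.10 for Ndst2, -0.064 to 0.16 for Ndst3, -0.054 to 0.17 for Gpc2, -0.099 to 0.15 for Gpc4 and -0.22 to 0.014 for Gpc6. Neocortical ones ran from -0.022 to 0.11 for Ndst1, -0.17 to 0.074 for Ndst3, -0.0073 to 0.063 for Gpc1 and -0.0085 to 0.083 for Gpc5, and the tissue difference of Ndst2 from -0.011 to 0.044. Gpc5 in the neocortex was -0.0047 with a transcript-length offset and -0.0071 with DESeq2 and that offset. Ndst2 in the hippocampus was -0.048 without the 2 samples richest in choroid plexus transcript. Among miR-324-null samples alone the tissue differences of Ndst1, Ndst2 and Gpc2 were -0.0042, -0.026 and -0.097. The settings with DESeq2 and the offset, without those 2 samples and with miR-324-null samples alone were chosen after seeing the data, and the causes were not tested.

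With same-numbered samples of a genotype paired across tissues as a block, Ndst3 passed between tissues (0.14, adjusted p = 0.0242, edgeR), making 6 genes. With the replicate number as a block in each tissue's genotype fit, hippocampal calls among all genes went from 17 to 4 and neocortical ones from 47 to 30. The labels do not say whether samples of the same number share a mouse, and the main fits did not treat the numbers as pairs. The deviations of same-numbered samples correlated at -0.17 to 0.18 (0.017 to 0.18 between the miR-324-null tissues). In the 4 sets of 5 pairs, 2, 3, 1 and 1 samples correlated best with their own number. Calls among all genes were 139 and 240 with DESeq2, 9 and 26 with at least 10 counts in every sample, and 83 in the hippocampus with all 20 samples in 1 fit. Ndst4 depended on scale, with a neocortical value of 1.71 and a difference between tissues of -1.84 on log2(TPM + 1). Depth is lowest for Gpc2, at 16 to 69 counts per library, and for Ndst4 in WT neocortex, at 15 to 55.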
